A study of Drosophila melanogaster with 4 samples.

Results

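The Jonah genes are a family of serine proteases of Drosophila melanogaster, and the account below covers 10 of them, which lie in 4 tandem clusters named for their cytological bands. Cluster 65A holds Jon65Aiv, Jon65Aiii and Jon65Ai, cluster 66C holds Jon66Ci and Jon66Cii, cluster 99C holds Jon99Ciii, Jon99Cii and Jon99Ci, and cluster 99F holds Jon99Fii and Jon99Fi. The genes were taken by name from 13990 symbols listed for each library, and they were chosen by their FPKM in the ND-75-i and Con libraries. The contrast between these groups is therefore a description for them, with no test. All 10 had usable values in every library, and 9 passed a filter on low values (at least 1 FPKM in at least 2 libraries). FPKM are fragment numbers divided by transcript length and by the library's mapped fragments, so levels of different genes can be compared per length.

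RNA came from fat bodies of larvae in the last instar, 110 h after egg laying, with 10 fat bodies pooled per sample. In the ND-75-i group (2 samples), dMef2-Gal4, a driver active in muscle, expressed UAS-ND-75-RNAi, whose target encodes part of the core of respiratory complex I. In the Con group (2 samples) dMef2-Gal4 expressed UAS-white-RNAi, directed against an eye pigment transporter, and all animals carried yw. The question behind the comparison is what changes in fat body RNA when muscle carries the complex I knockdown. The labels do not say that the samples of a group came from separate crosses, so the p-values reflect no more than how these samples vary, and that variation may be technical.

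Jonah proteases belong to the chymotrypsin-like (S1) serine peptidases, which cut proteins with a catalytic triad of histidine, aspartate and serine. They are made as secretory precursors and are known as digestive enzymes of the larval and adult midgut, the absorptive part of the gut. The fat body, which stores nutrients and secretes blood proteins, is not a tissue they are known for. In bulk tissue, fewer cells of a type and less RNA per cell cannot be told apart.

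Summed FPKM lay between 849472 and 957235 per library, and the bounds deposited with the values correspond to between 9542050 and 11292700 fragments. ND-75, listed as ND75, stood at 94.8 and 79.0 FPKM in ND-75-i and 46.6 and 43.9 FPKM in Con, which does not measure the knockdown in muscle. Of 10023 genes tested with limma on log2(FPKM + 1), ND-75-i was called higher for 778 (7.76%) and lower for 109 (1.09%), taking adjusted p-values under 0.05. The counts were 348 and 139 after median-ratio rescaling of the libraries and 500 and 303 after quantile normalization. The median log2 change over these genes, ND-75-i minus Con, was 0.25, and -0.01 after median-ratio rescaling. The 7 fat body markers with usable values in all libraries summed to 13901 and 25864 FPKM in ND-75-i and 76268 and 80018 FPKM in Con, and members of the list differed in direction. Of genes named after their values were seen, the perilipin gene Lsd-1 stood at 1172 and 1091 FPKM in ND-75-i and 1213 and 1330 FPKM in Con, and the lipophorin gene apolpp, listed as Rfabg, at 2940 and 3098 FPKM in ND-75-i and 2688 and 2237 FPKM in Con. Lsp1alpha, Fbp1 and Fbp2, described with the other markers, had both ND-75-i values below both Con values.

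The 10 genes fell into a pair that was abundant in every library and a set of 8 that was near 0 in both Con libraries. The pair was Jon65Aiv and Jon65Aiii. The 8 were Jon65Ai and all members of the clusters 66C, 99C and 99F. The highest Con value among the 8 was 0.231 FPKM, and the lowest Con value of the pair was 136 FPKM, with no member between these values. Of the 16 Con values of the 8 genes, 6 were listed at 0, and none rested on more than 2.0 fragments by the deposited bounds. In ND-75-i, 7 of the 8 lay between 9.52 and 110.4 FPKM. In these 7 both ND-75-i values exceeded both Con values, and the other 3 members overlapped. Such separation, ND-75-i above, was seen in 53.7% of the genes tested, and the opposite separation in 21.7%, so it alone sets no gene apart. Fewer genes combined less than 0.5 FPKM in both Con libraries with at least 5 FPKM in both ND-75-i libraries, 29 of 10023 (0.289%). The same 7 members were among them, with Jon25Biii and Jon44E, which are Jonah genes of other loci. The members were chosen by their FPKM in these groups, so their place among the 29 was largely fixed by that choice. All genes that meet this rule passed the filter on low values only through ND-75-i. Membership among the 29 is therefore a description and no evidence.

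**Figure D1:**
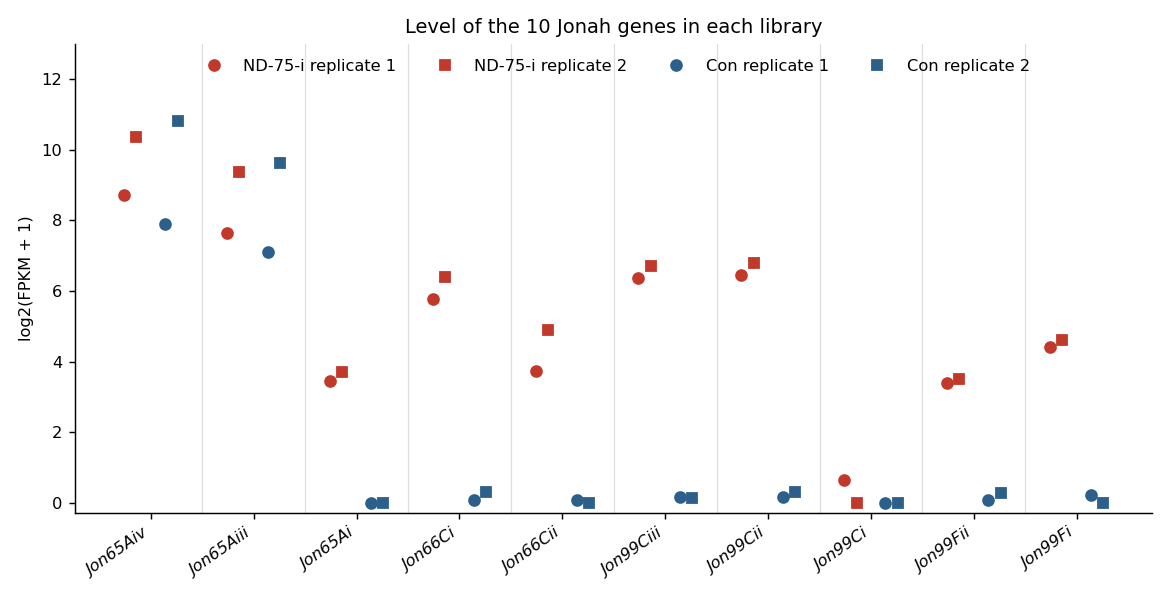
Level of each of the 10 Jonah genes, as log2(FPKM + 1), in the 2 ND-75-i libraries (red) and the 2 Con libraries (blue), with circles for replicate 1 and squares for replicate 2. Jon65Aiv and Jon65Aiii are high in all 4 libraries with overlapping groups, and 7 of the other 8 genes are separated from Con values near 0.

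The 99C cluster held the most abundant of the 8 genes. It spans 3.98 kb of arm 3R, from 25747931 to 25751907 in the deposited coordinates, whose genome build is not given in the sources used here. Jon99Cii (25749476 to 25750333) stood at 86.1 and 110.4 FPKM in ND-75-i and 0.114 and 0.223 FPKM in Con. The values of ND-75-i were above both Con values, which correspond to 1.0 and 2.0 fragments. The difference in mean log2(FPKM + 1) was 6.40 (SD 0.25 in ND-75-i and 0.096 in Con, n = 2 each). Jon99Ciii (25747931 to 25748823) stood at 82.3 and 104 FPKM in ND-75-i and 0.108 and 0.106 FPKM in Con, also a difference of 6.40. These were the largest differences of the 10, and which of the 2 genes led depended on the setting, with 6.217 for Jon99Cii and 6.220 for Jon99Ciii after median-ratio rescaling. The adjacent pair was at nearly the same level. Jon99Ciii had 0.956 and 0.939 of the FPKM of Jon99Cii in the ND-75-i libraries.

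Jon99Ci (25750948 to 25751907), the third gene of the cluster, did not share this level. It was listed at 0.566 and 0 FPKM in ND-75-i and at 0 in both Con libraries. The single value above 0 corresponds to 6.0 fragments, with deposited bounds of 0.104 and 1.03 FPKM. It did not pass the filter on low values. At this depth a difference between the groups was not detectable for Jon99Ci. Folds are not given for any of the 8 genes, because the Con values are at 0 or rest on so few fragments.

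The 66C cluster spans 2.11 kb of arm 3L, from 8384642 to 8386749. Jon66Ci (8384642 to 8385479) stood at 53.7 and 82.8 FPKM in ND-75-i and 0.0587 and 0.231 FPKM in Con, a difference of 5.89 on the log2(FPKM + 1) scale (SD 0.43 in ND-75-i and 0.15 in Con, n = 2 each). Jon66Cii (8385958 to 8386749) stood at 12.2 and 28.7 FPKM in ND-75-i and 0.0634 and 0 FPKM in Con, a difference of 4.26 (SD 0.83 and 0.063). Both genes were higher in replicate 2 of ND-75-i than in replicate 1, and the groups were far apart. Jon66Ci exceeded Jon66Cii by 4.40 times in ND-75-i replicate 1 and 2.88 times in ND-75-i replicate 2. This ratio was less even than those of the other neighbouring pairs.

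The 99F cluster spans 2.89 kb of arm 3R, from 26312736 to 26315625, and its genes were the most even between the ND-75-i libraries. Jon99Fi (26314687 to 26315625) stood at 20.1 and 23.5 FPKM in ND-75-i and 0.152 and 0 FPKM in Con, a difference of 4.41 (SD 0.15 in ND-75-i and 0.14 in Con, n = 2 each). Jon99Fii (26312736 to 26313648) stood at 9.52 and 10.5 FPKM in ND-75-i and 0.0525 and 0.206 FPKM in Con, a difference of 3.28 (SD 0.088 and 0.14). Jon99Fi had 2.12 and 2.25 times the FPKM of Jon99Fii in the ND-75-i libraries. Relative to Jon99Cii, which lies in the 99C cluster of the same arm, Jon99Fi was at 0.234 and 0.213.

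Neighbouring Jonah genes are similar to each other, and fragments may have been divided between them. In Con replicate 1 the bounds correspond to 0.5 fragments for each of Jon66Ci and Jon66Cii, and to 1.5 and 0.5 fragments for Jon99Fi and Jon99Fii, which are not whole numbers. In the ND-75-i libraries Jon99Cii corresponds to 852.4 and 992.4 fragments and Jon99Ciii to 858.9 and 982.1 fragments. How the counting assigned fragments within a pair is not given in the sources used here, so the split within each pair is uncertain, while the sum per cluster is less affected. The summed FPKM of cluster 99C was 169 and 214 in ND-75-i and 0.222 and 0.329 in Con. For cluster 66C it was 65.9 and 111 in ND-75-i and 0.122 and 0.231 in Con, and for cluster 99F it was 29.7 and 34.0 in ND-75-i and 0.204 and 0.206 in Con. In each of the 3 clusters, both ND-75-i sums were above both Con sums. All members of these clusters belong to the set near 0 in Con. The choice of the members largely fixed this order, so the sums are given as values only.

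Cluster 65A combined both kinds of gene within 15.3 kb of arm 3L, from 6032257 to 6047526. Jon65Aiv (6032257 to 6033246) stood at 424 and 1317 FPKM in ND-75-i and 239 and 1819 FPKM in Con. The highest and the lowest value were both Con libraries, 7.62-fold apart, and the ND-75-i values lay between them. Jon65Aiii (6043874 to 6044798) stood at 198 and 658 FPKM in ND-75-i and 136 and 796 FPKM in Con, with the libraries in the same order and 5.86-fold apart. Jon65Ai (6046684 to 6047526) stood at 9.92 and 11.96 FPKM in ND-75-i and was listed at 0 in both Con libraries. Its Con values contrast with those of Jon65Aiii in the same cluster. Between Jon65Aiii and Jon65Ai lies Jon65Aii, not among the 10, which is described with the other Jonah genes.

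The differences in mean log2(FPKM + 1) were 0.18 for Jon65Aiv (SD 1.15 in ND-75-i and 2.07 in Con, n = 2 each) and 0.13 for Jon65Aiii (SD 1.22 and 1.80), far smaller than the spread within groups. Their sign depended on the scaling, with -0.11 and -0.16 after median-ratio rescaling and -0.30 and -0.29 after quantile normalization. It also depended on single libraries. Jon65Aiv gave -1.28 without Con replicate 1, 1.64 without Con replicate 2, 0.996 without ND-75-i replicate 1 and -0.64 without ND-75-i replicate 2. Jon65Aiii gave -1.14, 1.40, 0.998 and -0.73 in the same order. Although their levels ranged widely, the pair kept a similar proportion in all libraries. Jon65Aiii had 0.466 and 0.5 of the FPKM of Jon65Aiv in ND-75-i and 0.569 and 0.437 in Con.

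**Figure D2:**
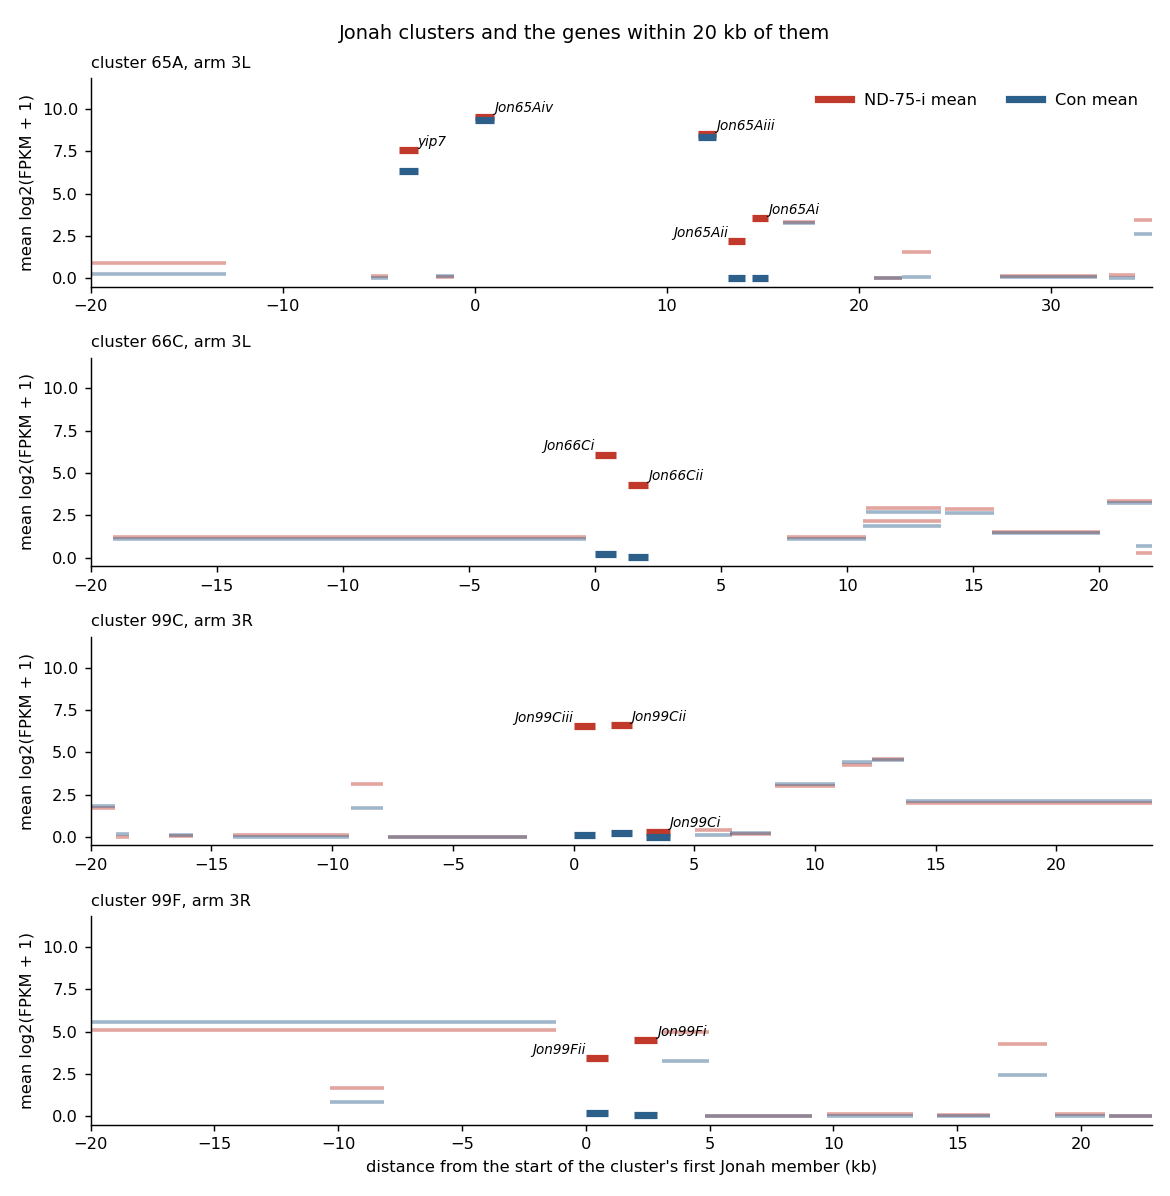
Mean log2(FPKM + 1) of ND-75-i (red) and Con (blue) for each gene of the 4 clusters and within 20 kb of them, drawn over the gene's extent, against the distance in kb from the start of the cluster's first Jonah member. Thick bars are Jonah genes and thin pale bars are other genes. In cluster 65A the genes Jon65Aiv and Jon65Aiii are high in both groups, whereas Jon65Ai and Jon65Aii have Con means of 0.

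In the release 6 annotation of the genome, used here for structure only, 7 of the 10 genes have 1 exon and 3 have 2 exons. Exons were counted in 1 transcript per gene, and Jon65Ai and Jon99Ciii have 2 transcripts each. The 7 with 1 exon are the 7 whose groups did not overlap. Those with 2 exons are the 3 whose groups overlapped, Jon65Aiv and Jon65Aiii, which were abundant in all libraries, and Jon99Ci, which was at or near 0 in all. The members were chosen by the values that give this separation, and 53.7% of all genes tested had ND-75-i above in the same way. The match with exon number is therefore a description and no evidence. Among the 7 Jonah genes outside the 10 the split was not the same, since 2 of 4 genes with 1 exon and 2 of 3 with more exons had overlapping groups. The 10 members encode proteins of 260 to 274 residues. In the clusters 66C and 99F the neighbouring genes lie on opposite strands, as do Jon99Ciii and Jon99Cii, while Jon99Cii and Jon99Ci share a strand.

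The summed FPKM of the 10 genes hid these patterns, because Jon65Aiv and Jon65Aiii made up most of it. The sum was 896 and 2347 FPKM in ND-75-i and 375 and 2615 FPKM in Con, with overlapping groups. The ratio of the means, ND-75-i over Con, was 1.08, and 0.930 after median-ratio rescaling. It was 0.620 without Con replicate 1, 4.32 without Con replicate 2, 1.57 without ND-75-i replicate 1 and 0.600 without ND-75-i replicate 2. The 8 genes summed to 274 and 371 FPKM in ND-75-i and 0.548 and 0.766 FPKM in Con. They made up 30.6% and 15.8% of the sum of the 10 in ND-75-i, and 0.146% and 0.0293% of it in Con.

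The summed levels of other digestive transcripts in each library were set beside those of the 8 genes. The list of 24 trypsins and related digestive serine proteases summed to 597 and 1046 FPKM in ND-75-i and 167 and 1205 FPKM in Con. The digestive lysozyme genes LysB, LysC, LysD and LysS, a group put together after their values were seen, summed to 553 and 1661 FPKM in ND-75-i and 15.5 and 1311 FPKM in Con. Con replicate 2 had the highest sum of the protease list and 0.766 FPKM of the 8 Jonah genes. ND-75-i replicate 1, with a lower protease sum, had 274 FPKM of the 8 genes. Within each group, the 8 genes, the protease list and the lysozyme genes all had their higher sum in replicate 2. The Con sums of the 8 genes rest on few fragments. Per 1000 FPKM of the protease list, the 8 genes stood at 460 and 355 FPKM in ND-75-i and 3.28 and 0.636 FPKM in Con. Per 1000 FPKM of Jon65Aiv they stood at 647 and 282 FPKM in ND-75-i and 2.30 and 0.421 FPKM in Con. The Con sums of the 8 genes were near 0 by the choice of the set. That fixes how their sums and these ratios stand between the groups, so both are given as values only. For Jon65Aiii and Jon65Aiv together, the level per 1000 FPKM of the protease list was 1042 and 1889 FPKM in ND-75-i and 2244 and 2171 FPKM in Con. Both ND-75-i values of that level were below both Con values, which was not tested. The pair was set apart by being abundant in every library, so a level away from 0 was fixed by that choice.

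**Figure D3:**
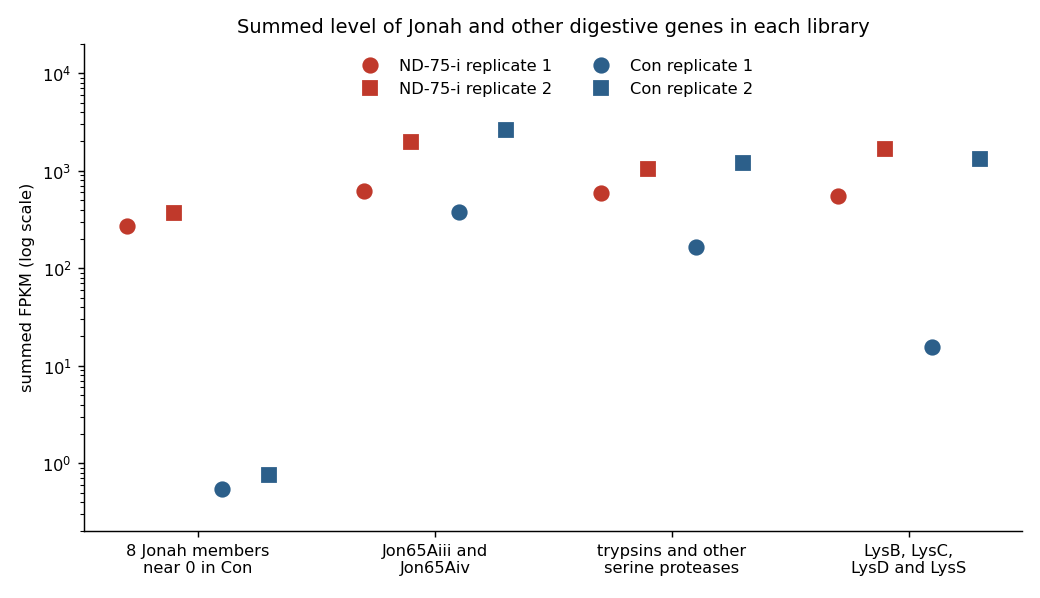
Summed FPKM on a log axis in each of the 4 libraries for the 8 Jonah genes near 0 in Con, for Jon65Aiii with Jon65Aiv, for the list of 24 digestive serine proteases, and for 4 lysozyme genes. Circles are replicate 1 and squares replicate 2, with ND-75-i in red and Con in blue. The lowest value of the last 3 groups is Con replicate 1, and Con replicate 2 is close to ND-75-i replicate 2, whereas both Con libraries are below 1 for the first group.

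The 7 Jonah genes outside the 10 were listed with earlier results of these data known, so they are not independent evidence. Of these genes, 3 were near 0 in both Con libraries. The Con values of the rest lay between near 0 and 136 FPKM, the lowest Con value of Jon65Aiv and Jon65Aiii. The exception was yip7, at 192 FPKM in Con replicate 2. The gap seen among the 10 was therefore not seen in the wider family. All 7 were tested, and limma called 3 higher (Jon44E, Jon25Biii and Jon65Aii) and 0 lower, against 7.76% and 1.09% of all genes tested. These 3 passed the filter on low values only through their ND-75-i libraries, so the count alone carries little weight. Jon44E stood at 6.06 and 6.36 FPKM in ND-75-i and was listed at 0 in both Con libraries (log2 change 2.85, SE 0.202, limma adjusted p = 0.0182). Jon25Biii stood at 10.2 and 26.1 FPKM in ND-75-i and 0.243 and 0 FPKM in Con (log2 change 3.97, SE 0.495, limma adjusted p = 0.0320). Jon65Aii, the neighbour of Jon65Ai, stood at 4.94 and 2.53 FPKM in ND-75-i and was listed at 0 in Con (log2 change 2.19, SE 0.344, limma adjusted p = 0.0433). For Jon65Aii limma gave an adjusted p of 0.0546 once the libraries were rescaled by median ratios. That call was also lost with a pseudocount of 5 and with no low filter (limma adjusted p of at most 0.0565). With any 1 of the 4 libraries left out, limma called 0 of the 7, while unadjusted p-values under 0.05 went to 3 to 4 higher and 0 lower genes.

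The other 4 genes overlapped between groups. Jon25Bii stood at 42.9 and 250.3 FPKM in ND-75-i and 11.9 and 113 FPKM in Con (limma adjusted p = 0.465), and its neighbour Jon25Bi at 8.68 and 58.5 FPKM in ND-75-i and 6.07 and 58.0 FPKM in Con (limma adjusted p = 0.911). Both followed the order of Jon65Aiv within each group, with replicate 2 above replicate 1. Jon25Bi had 0.202 and 0.234 of the FPKM of Jon25Bii in ND-75-i and 0.510 and 0.514 in Con, so the proportion of this pair was even within groups and lower in ND-75-i. The gene yip7, a Jonah-type protease next to the 65A cluster, stood at 118 and 306 FPKM in ND-75-i and 32.4 and 192 FPKM in Con (limma adjusted p = 0.389). Jon74E stood at 48.7 and 24.4 FPKM in ND-75-i and 3.21 and 32.9 FPKM in Con (limma adjusted p = 0.333). In each of these 4 genes the SD within Con on the log2(FPKM + 1) scale exceeded the difference between the groups.

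Among 24 trypsins and related digestive serine proteases, 8 passed the filter, and limma called 1 higher and 0 lower. It was CG18180, at 63.4 and 106 FPKM in ND-75-i and 1.29 and 1.68 FPKM in Con (log2 change 5.07, SE 0.293, limma adjusted p = 0.0182). With any 1 library left out limma called 0 of the 8, while unadjusted p-values under 0.05 went to 1 to 3 higher and 0 to 1 lower genes. The most abundant of the list were gammaTry and deltaTry, adjacent trypsin genes that may share fragments. The level of gammaTry was 196 and 443 FPKM in ND-75-i and 79.1 and 521 FPKM in Con (limma adjusted p = 0.714). For deltaTry it was 197 and 433 FPKM in ND-75-i and 75.4 and 510 FPKM in Con (limma adjusted p = 0.696). The libraries stood in the order seen for Jon65Aiv. The median log2 change of the 8 genes was 0.79, against 0.25 over all genes tested, and it was -0.46 without Con replicate 1 and 2.12 without Con replicate 2.

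Of 26 other digestive enzymes 10 passed the filter, and limma called 1 higher and 1 lower. The lipase gene mag, listed as CG5932, stood at 3.50 and 2.02 FPKM in ND-75-i and was listed at 0 in Con (log2 change 1.88, SE 0.305, limma adjusted p = 0.0449, and 0.0578 after median-ratio rescaling). Like the 3 Jonah genes called, mag passed the filter on low values only through its ND-75-i libraries. The maltase gene Mal-A6, listed as CG30360, fell to 5.80 and 9.23 FPKM in ND-75-i, against 46.8 and 53.6 FPKM in Con (log2 change -2.61, SE 0.242, limma adjusted p = 0.0217). After quantile normalization 3 genes of the list were lower. With any 1 library left out limma called 0, while unadjusted p-values under 0.05 went to 1 to 5 higher and 2 to 3 lower genes. The most abundant were cathD, a lysosomal protease gene, at 544 and 555 FPKM in ND-75-i and 723 and 918 FPKM in Con (limma adjusted p = 0.0863, and 0.0493 after median-ratio rescaling), and LysB. LysB stood at 269 and 843 FPKM in ND-75-i and 3.59 and 601 FPKM in Con (limma adjusted p = 0.382). The amylase genes Amy-p and Amy-d, named after their values were seen, were below 1 FPKM in all 4 libraries.

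**Figure D4:**
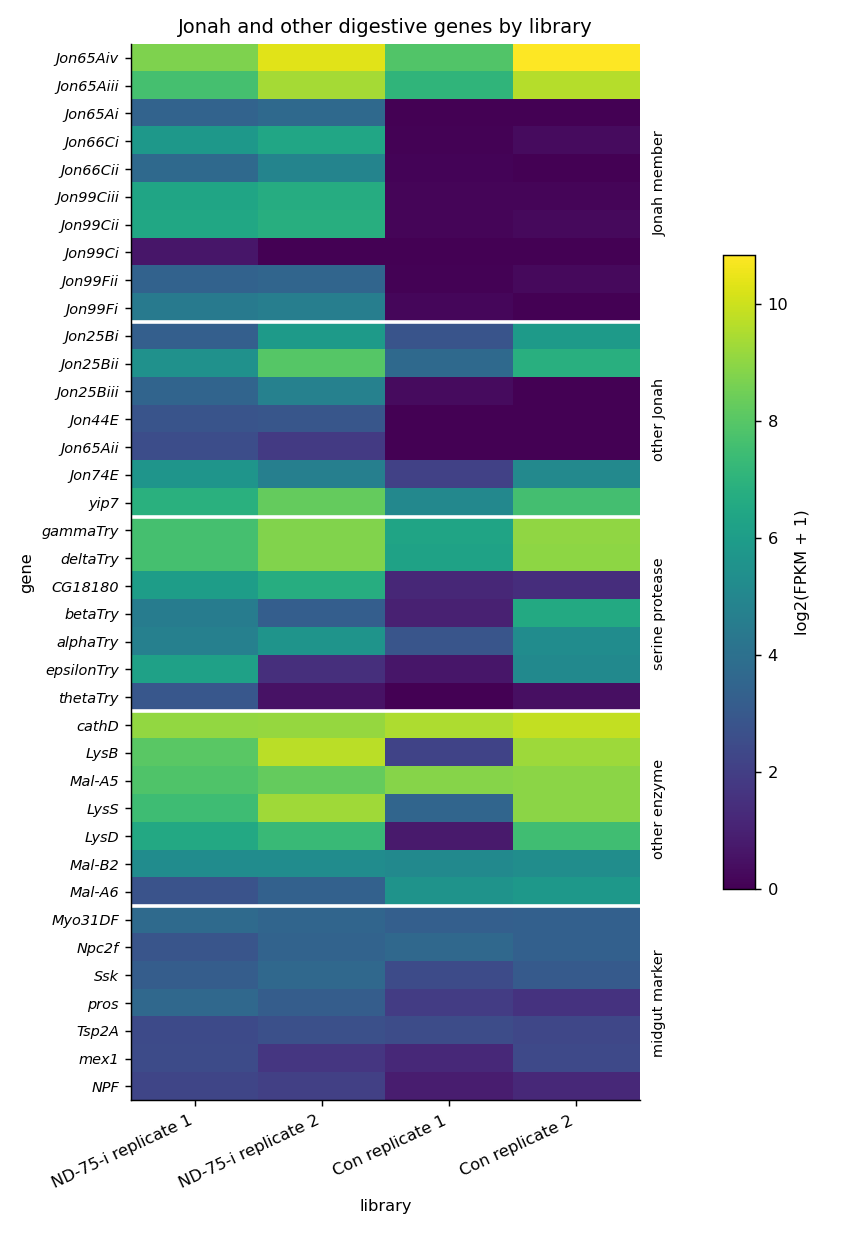
Heat map of log2(FPKM + 1) in the 4 libraries, ND-75-i at the left and Con at the right, for the 10 Jonah members, the 7 other Jonah genes and the 7 genes of highest mean FPKM in each of 3 lists (digestive serine proteases, other digestive enzymes, midgut markers that are no enzymes). Dark Con columns mark the genes near 0 in Con, and Con replicate 1 is darker than the other libraries for the trypsins and lysozymes that were abundant elsewhere.

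Midgut markers that are no digestive enzymes were low in all libraries. Of 18 such genes 11 passed the filter, limma called 1 higher and 0 lower (4 and 0 by unadjusted p-values under 0.05), and their summed FPKM was 68.6 and 62.6 in ND-75-i and 38.4 and 44.4 in Con. The median log2 change of the 11 genes was 0.50, against 0.25 over all genes tested. No member of the list was at 0 in all libraries, and 3 were under 1 FPKM in all of them. The called gene was pros, a transcription factor of enteroendocrine and nerve cells, at 11.6 and 8.03 FPKM in ND-75-i and 2.76 and 2.04 FPKM in Con (log2 change 1.66, SE 0.253, limma adjusted p = 0.0420, and 0.0664 after median-ratio rescaling). With any 1 library left out limma called 0, while unadjusted p-values under 0.05 went to 2 to 4 higher and 0 lower genes. The most abundant were Myo31DF, an unconventional myosin gene used as an enterocyte marker, at 12.6 and 10.7 FPKM in ND-75-i and 8.61 and 8.97 FPKM in Con (limma adjusted p = 0.154), and Npc2f at 6.26 and 10.1 FPKM in ND-75-i and 11.5 and 8.87 FPKM in Con (limma adjusted p = 0.426). The other 3 genes with unadjusted p-values under 0.05, named after their values were seen, were the gut peptide genes NPF (listed as npf), AstA (listed as Ast) and Dh31, and none was called. NPF stood at 3.82 and 3.20 FPKM in ND-75-i and 0.820 and 1.41 FPKM in Con (limma adjusted p = 0.0715). The midgut gene mex1, named likewise, stood at 4.50 and 2.31 FPKM in ND-75-i and 1.34 and 4.24 FPKM in Con. The midgut transcription factor gene GATAe, named likewise, stood at 0.929 and 1.52 FPKM in ND-75-i and 0.281 and 0.652 FPKM in Con. The part of midgut RNA in the levels of the Jonah genes was not tested.

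Markers of the salivary gland and the fat body were examined in the same way. The 12 salivary gland markers summed to 37570 and 29183 FPKM in ND-75-i and 82825 and 38950 FPKM in Con, and limma called 1 higher and 0 lower of 11 tested, against 0 higher and 2 lower after quantile normalization and 3 higher and 0 lower with a mean of at least 5 FPKM. The called gene was ng1, a new-glue gene, which is expressed in salivary glands before the glue genes, at 1595 and 1456 FPKM in ND-75-i and 143 and 35.6 FPKM in Con (log2 change 4.39, SE 0.709, limma adjusted p = 0.0446, and 0.0732 after median-ratio rescaling). The most abundant glue genes were Sgs7, at 16169 and 11379 FPKM in ND-75-i and 48873 and 23766 FPKM in Con (limma adjusted p = 0.123), and Sgs3 (limma adjusted p = 0.185). Of 10 fat body markers 7 were tested, and limma called 2 higher, AkhR (listed as GRHR) and Cg25C, and 1 lower; both higher calls were lost after either rescaling. The lower gene was Lsp1alpha, a storage protein gene of late larvae, at 2893 and 4506 FPKM in ND-75-i and 28004 and 25267 FPKM in Con (log2 change -2.88, limma adjusted p = 0.0220). Fbp2, the most abundant of the 7 tested, stood at 6380 and 16337 FPKM in ND-75-i and 29137 and 33073 FPKM in Con (limma adjusted p = 0.116). Fbp1, the late larval storage protein receptor gene, named after its values were seen, stood at 22.5 and 393 FPKM in ND-75-i and 14971 and 17897 FPKM in Con (limma adjusted p = 0.0594). With any 1 library left out, limma called 0 of the salivary gland list, and of the fat body list 0 higher and 0 to 1 lower. Of the genes named here, ng1, AkhR, Cg25C and Lsp1alpha passed the test and the others did not. The part of larval stage in the Jonah levels was not tested.

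The remaining marker lists were at low levels. The 7 hemocyte markers summed to 82.8 and 94.7 FPKM in ND-75-i and 95.4 and 156 FPKM in Con, and limma called 0 of 7, with unadjusted p-values under 0.05 for 0 higher genes and 1 lower gene. The 12 muscle markers summed to 72.4 and 52.4 FPKM in ND-75-i and 43.3 and 45.8 FPKM in Con, and limma called 0 of 12, with unadjusted p-values under 0.05 for 3 higher genes and 0 lower genes. The 6 Malpighian tubule markers summed to 99.2 and 100.3 FPKM in ND-75-i and 82.7 and 74.8 FPKM in Con. Of these, 1 was higher, NaPi-T, a phosphate cotransporter gene (log2 change 1.85, SE 0.206, limma adjusted p = 0.0261, and 0.0550 after median-ratio rescaling), and limma called 0 of the 6 with any 1 library left out. No gene of these 3 lists was at 0 in all libraries.

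Genes around the clusters did not share the levels of the 8 Jonah genes. Of 38 genes within 20 kb of a member that are not Jonah genes, 19 passed the filter and limma called 0. Unadjusted p-values under 0.05 went to 4 higher and 0 lower genes, against 2946 and 772 of the 10023 genes tested. Over all genes tested, limma called 7.76% higher and 1.09% lower, so 0 among 19 says little. Many neighbours were silent, with 17 of the 38 under 1 FPKM in all libraries. CG10477, CG6462, CG6592 and CG10472 also belong to the list of digestive serine proteases. The Jonah genes Jon65Aii and yip7 lie in or next to cluster 65A and are left out here. With a pseudocount of 5 or a filter of a mean of at least 5 FPKM, limma called 1 higher, CG13295, named after its values were seen, which stood at 10.5 and 9.67 FPKM in ND-75-i and 5.44 and 5.03 FPKM in Con (limma adjusted p = 0.05005 with the pseudocount of 1). The median log2 change of the 19 genes was 0.10, against 0.25 over all genes tested, and -0.07 after median-ratio rescaling. In cluster 65A, the gene listed as tan begins 751 bp after Jon65Ai and stood at 9.10 and 8.69 FPKM in ND-75-i and 8.12 and 9.13 FPKM in Con (limma adjusted p = 0.831). On the other side CG6462, 1086 bp before Jon65Aiv, was below 0.1 FPKM in all 4 libraries. ImpE1, an ecdysone-inducible gene that ends 368 bp before Jon66Ci, stood at 1.62 and 1.10 FPKM in ND-75-i and 0.531 and 1.91 FPKM in Con (limma adjusted p = 0.792). CG7120, 5519 bp after Jon66Cii, stood at 1.11 and 1.51 FPKM in ND-75-i and 1.24 and 1.08 FPKM in Con.

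Beside cluster 99C, trp, a photoreceptor channel gene that lies 1919 bp before Jon99Ciii, was listed at 0 in all 4 libraries. CG15522, 1066 bp after Jon99Ci, stood at 0.293 and 0.322 FPKM in ND-75-i and 0 and 0.162 FPKM in Con. Beside cluster 99F, PH4alphaEFB, a prolyl hydroxylase subunit gene and the most abundant of the neighbours, stood at 31.1 and 36.1 FPKM in ND-75-i and 51.7 and 40.1 FPKM in Con (limma adjusted p = 0.152). The gene after it in abundance was eIF2B-alpha, at 22.3 and 23.7 FPKM in ND-75-i and 22.2 and 21.5 FPKM in Con (limma adjusted p = 0.611). PH4alphaSG2, a prolyl hydroxylase subunit gene of salivary glands that begins 172 bp after Jon99Fi, stood at 30.4 and 29.4 FPKM in ND-75-i and 17.2 and 3.94 FPKM in Con (limma adjusted p = 0.153). None of these bordering genes had Con values near 0 together with ND-75-i values of 5 FPKM or more.

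The genes most like Jon99Cii, which with Jon99Ciii had the largest difference, were sought among all genes tested by the Euclidean distance between centred log2(FPKM + 1) profiles over the 4 libraries. The nearest was its neighbour Jon99Ciii at a distance of 0.099, and the next was Jon66Ci at 0.543. The other 3 of the nearest 5 were snoRNA:Psi18S-1377b at 0.570, CG16898 at 1.04 and CG42725 at 1.10. CG16898 stood at 88.3 and 109 FPKM in ND-75-i and 1.01 and 1.78 FPKM in Con. CG42725 stood at 54.2 and 36.5 FPKM in ND-75-i and was listed at 0 in Con, and the small nucleolar RNA at 97.3 and 71.4 FPKM in ND-75-i and 0 in Con. With 4 libraries, likeness rests on few values and says little beyond a similar difference between the groups.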

How the data were processed

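Per the file headers, the authors deposited 1 table of gene FPKM per library, each value with its bounds and a status. Per the submitters' processing notes, Bowtie 0.12.2 was among the tools. What program computed FPKM, from which annotation and build, and whether strand was used, is not given in the sources used here. Deposited starts were raised by 1 to print 1-based coordinates. Gene starts on arm 3R differ from the release 6 annotation by up to 4174285 bp, so no coordinate of that annotation is printed.

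Of 14146 lines, symbols on more than 1 line (93) were taken from the line of highest mean, and 5 names turned into dates in 1 table were read by line. Symbols whose status was OK throughout (13882) and at least 1 FPKM in at least 2 libraries were tested (10023). The test was limma (version 3.58.1, R 4.3.3) on log2(FPKM + 1), two-sided, with a term for group, a variance trend on intensity and Benjamini-Hochberg adjustment over all genes tested. It had 2 residual and 1.95 prior degrees of freedom. The fit was also run on simulated data with independent normal noise for each gene, which does not show how it performs on these libraries. Changes on this scale understate those of low genes. Implied fragments were computed as (FPKM / h) squared, with h being 0.5 of the distance to the upper bound, and are not counts for every gene. Of 122 list genes, 20 were matched through a synonym in RefSeq's gene table. Figures were drawn with matplotlib 3.10.9, and tables were made with NumPy 2.4.6 and pandas 2.3.3 (Python 3.11.15).

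The members and lists were chosen with earlier results of these data known. Named genes were the members, the other Jonah genes, up to 4 called genes and the 2 of highest mean FPKM in each list, the 5 nearest profiles and the genes bordering each cluster. The results were recomputed with each library left out, with the replicate number as a block, with pseudocounts of 0.1 and 5, after quantile normalization or median-ratio rescaling, and with the low filter dropped or replaced by a mean of 5 FPKM or more.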

Additional observations from a re-analysis of the deposited data

How the results depend on the processing

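The differences of the 7 members with separate groups stayed above 0 under median-ratio rescaling, quantile normalization, both other pseudocounts and with each library left out, which the separation largely fixes in advance. Their sizes depended on the pseudocount, as for Jon99Cii with 8.54 at 0.1 and 4.31 at 5. Under the 2 rescalings 7 members still had separate groups. The share of all genes tested with ND-75-i above (53.7%) was computed without rescaling only. This count therefore has no background and does not set the members apart. Over all genes, median-ratio rescaling gave 348 higher, quantile normalization 500 higher and 303 lower, and the replicate block 792 higher and 198 lower. Of the other Jonah genes, 2 were higher with median-ratio rescaling, a pseudocount of 5 or no low filter. With a mean of at least 5 FPKM, 1 of 5 tested was higher. That filter left out Jon44E and Jon65Aii, with means of 3.11 and 1.87 FPKM. Limma called 0 of the other digestive enzymes higher with pseudocounts of 0.1 or 5 and with median-ratio rescaling (1 at an unadjusted p below 0.05). It also called 0 higher with the mean filter, which left out mag (mean of 1.38 FPKM). In that list 2 were lower with median-ratio rescaling, the mean filter or the replicate block, and 3 after quantile normalization. Of the midgut markers, limma called 0 higher with median-ratio rescaling and with no low filter. Of the neighbours, 1 was higher with a pseudocount of 5 or the mean filter. Apart from genes that the mean filter left out, the cause of these changes was not tested. With 1 library left out, limma called 0 to 2 genes higher and 0 to 1 lower over all genes, and 0 in each list but the fat body markers, with 0 to 1 lower, where the fit had 1 residual degree of freedom among samples and the lone sample was assumed to vary like the other group. The ratio of the members' summed FPKM then ran between 0.600 and 4.32, with means of 896 to 2347 in ND-75-i and 375 to 2615 in Con. The replicate numbers share only a label. Deviations of equal numbers correlated at 0.357 across genes in the 2 groups, and with the block 4 of the other Jonah genes were called higher, against 3 without it. The added gene was Jon25Bii (limma adjusted p = 0.0273). The block also gave 3 higher and 2 lower salivary gland markers.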

Other observations

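Genes with the profile of Jon65Aiv were looked up after its values were seen, by the same distance used for Jon99Cii. The nearest was CG14302 at a distance of 0.138, which stood at 220 and 614 FPKM in ND-75-i and 119 and 844 FPKM in Con. The next were CG7953 at 0.260, Jon65Aiii at 0.283, Npc2b, a sterol-binding protein gene, at 0.298, and CG17145 at 0.332. CG7953 stood at 46.0 and 182 FPKM in ND-75-i and 27.1 and 237 FPKM in Con. In each of these genes Con replicate 2 was the highest library and Con replicate 1 the lowest, which the search for like profiles largely fixed in advance.

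Trypsins of 1 tandem array did not all follow that order. The gene betaTry stood at 22.3 and 8.46 FPKM in ND-75-i and 1.004 and 95.4 FPKM in Con, and epsilonTry at 72.1 and 1.73 FPKM in ND-75-i and 0.591 and 34.7 FPKM in Con. Both were named after their values were seen. They were higher in replicate 1 than in replicate 2 of ND-75-i, whereas gammaTry and deltaTry were higher in replicate 2.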
